A study of Mus musculus with 4 samples.

Results

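The Naip genes (Naip1, Naip2, Naip5 and Naip6) were followed in mouse prostate on 4 two-colour Agilent arrays. The members were selected on the log2 ratio of mouse to pool of 1 gene, Naip5, which was low in all 4 mice, and Naip1, Naip2 and Naip6 were added as its relatives, so these ratios are described here and not tested. Every non-control probe whose name in the scanner files was Birc1a, Birc1b, Birc1e or Birc1f, the older names of Naip1, Naip2, Naip5 and Naip6, was kept. This gave 4 genes of the 27666 gene names on the array, read by 5 of its 41174 non-control probes: 1 each for Naip1, Naip2 and Naip5, and 2 for Naip6. A probe named Birc1c was not among these names and is not analysed here.

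In 2 mice, called mutant here, the genotype was Rb1R654W/F:Trp53F/F:PB-cre4, in which 1 Rb1 allele codes for the R654W protein and the other is conditional. In the other 2 mice, called null here, it was Rb1F/F:Trp53F/F:PB-Cre4, with conditional Rb1 alleles only. All 4 mice thus carried conditional Trp53 alleles and the Cre transgene PB-Cre4. Its probasin promoter acts in prostate epithelium, so the conditional alleles stay intact in other cells of the tissue. The R654W allele is not marked as conditional in the genotype. The RNA came from whole prostate of untreated mice aged 60 days, of mixed C57BL/6:129/SVJae:FVB strain, and was labelled red (Cy5). The green (Cy3) channel of each array held prostate RNA pooled from 3 wild-type mice, whose strain and age are not given in the sources used here. The dyes were not swapped, so a dye effect on a probe, the genotype and a strain difference cannot be told apart in a ratio of mouse to pool.

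NAIP proteins are cytosolic receptors of the NLR family that carry BIR domains at one end and leucine-rich repeats at the other. Each binds a bacterial protein and then recruits NLRC4, and the resulting inflammasome activates caspase-1, which cleaves gasdermin D and matures interleukin-1 beta and interleukin-18. In mice NAIP5 and NAIP6 recognise flagellin, whereas NAIP1 and NAIP2 recognise the needle and inner rod proteins of type III secretion systems, so the name flagellin sensor applies to Naip5 and Naip6. The family is best known from macrophages and intestinal epithelium. Naip5 is also the gene of the Lgn1 locus, at which inbred strains differ in how far their macrophages restrict Legionella.

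The probes lie in 1 cluster on the minus strand of chromosome 13, spanning 280236 bases (probe positions of the files, build mm7). In order of position they are Naip2 at chr13:97215683-97215742, Naip5 at chr13:97285457-97285516, Naip6 probe 1 at chr13:97355615-97355674, Naip6 probe 2 at chr13:97356857-97356916 and Naip1 at chr13:97495859-97495918. Whether each lies in coding sequence or in a UTR is not established here. Because these genes are close relatives, the probes are shown by their first 30 of 60 bases, 5′ to 3′, as the deposited files give them.
Naip2: ggatgaagtggaagattactggcaggtcca
Naip5: gggtggggggatattgggcttagagaaaac
Naip6 probe 1: tctcaagtgagcaaaatgacttctcttgac
Naip6 probe 2: aatgaatagaataaattcatggagtaaccc
Naip1: aatctatgagttttatgaactctctagggg
Over its 60 bases no Naip probe shared a run of more than 7 bases with a probe of another Naip gene. Probes were compared with probes only, not with whole transcripts, so whether a probe also binds RNA of another Naip gene was not tested. The longest run that the Naip5 probe shared with a probe of any other gene was 15 bases, and for the other Naip probes this was 12 to 15. The Naip5 probe was 38.33% G or C, against a median of 40% over all probes, and held a run of 6 identical bases. None of the 3 forward frames of the Naip5 probe or of Naip6 probe 2 was free of stop codons, whereas Naip2 and Naip6 probe 1 had 1 such frame and Naip1 had 2.

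Values are log2 ratios of mouse to pool after background correction (normexp, offset 50) and loess normalisation within each array, so 0 stands for equal signal and a negative value for less signal than the pool's. A filter on dim probes asked for a mouse signal well above background in both mice of either genotype, or a pool signal well above it on all 4 arrays, and 24918 probes met it. Of the 5 Naip probes 4 passed, and Naip6 probe 1 did not. Probes with a mouse signal well above background numbered 26168 and 25549 for the mutant mice, against 22183 and 25047 for the null mice, and null mouse 1 had the dimmest mouse channel, with a median background-subtracted signal of 24.4 against 56.8 to 91.3 in the other mice. No spot was saturated. The 4 arrays were on 1 slide with the mice of a genotype side by side, so place on the slide and genotype cannot be told apart, and precision is limited by having 4 arrays. The labels name separate mice as replicates. Rb1, by its brightest probe, was at -0.65 and -0.24 in mutant prostates, against 0.09 and -0.87 in null prostates, and Trp53 at 0.14 and 0.12 in mutant prostates, against 0.53 and 0.08 in null prostates. The positions of these probes relative to the deleted exons are unknown here, so they do not check the labels.

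Naip5 was far below the pool in every mouse. Mutant mice 1 and 2 had log2 ratios of -3.03 and -3.24, against -2.64 and -2.99 for null mice 1 and 2. The mean over the 4 mice was -2.97 ± 0.25 (SD, n = 4), which is 12.7% of the pool's signal, or 7.86-fold lower than the pool. In RNA of whole tissue, fewer cells of a type and less RNA per cell cannot be told apart. The pool is 1 control sample, so the spread between wild-type mice is not in these values.

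Before normalisation, the Naip5 probe read 153 and 126 scanner units above background for mutant mice 1 and 2, against 44.2 and 96.8 for null mice 1 and 2. In the pool channel it read 620 and 634 on the arrays of the mutant mice, against 645 and 605 on those of the null mice. The pool's reading of Naip5 was thus nearly the same on all arrays, at 626 ± 17.1 (SD, 4 readings of the pool), a coefficient of variation of 2.73%. Every reading was well above background, so the ratio is measured on each side and is not a bound. The mice fell in the order of their arrays' median mouse-channel signals, which were 91.3 and 83.8 in mutant prostates, against 24.4 and 56.8 in null prostates. In the loess-normalised ratios mutant mouse 2 was lowest and null mouse 1 highest, whereas with median centring null mouse 1 was lowest, at -2.76, and mutant mouse 1 highest, at -2.36.

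**Figure D1:**
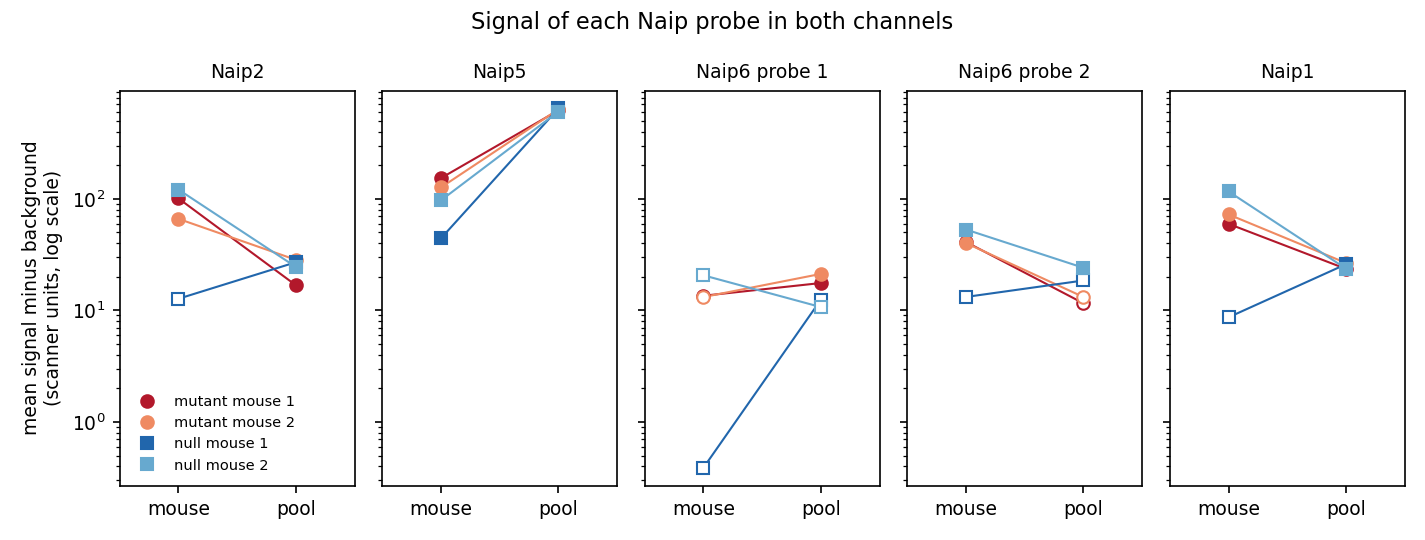
Background-subtracted mean signal of each Naip probe (vertical log axis, scanner units) in the mouse and pool channels, with a line joining the channels of an array, circles for the mutant mice and squares for the null mice; open symbols were not well above background. Naip5 lies between 44.2 and 153 in the mouse channel and between 605 and 645 in the pool channel; brightness differs between probes for reasons other than RNA level, so panels are not to be compared in height.

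The size of the Naip5 ratio depended on how the background was treated, and its direction did not in any setting run. From the deposited Agilent processed signals it was -3.75 and -4.09 in mutant prostates, against -3.57 and -4.00 in null prostates, with a mean of -3.85, or 14.5-fold lower than the pool. With a normexp offset of 16 the mean was -3.38 (10.4-fold). With median centring in place of loess it was -2.57 (5.95-fold), but there the median of all probes moved to 0.37, and relative to that median Naip5 was at -2.94.

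Naip2 did not share the low ratio of Naip5. Its values were 0.32 and -0.08 in mutant prostates, against -0.22 and 0.61 in null prostates, a mean of 0.16 ± 0.38 (SD, n = 4). The null mice lay on opposite sides of the pool, and the mutant mice between them. The pool channel was well above background on all 4 arrays, and the mouse channel on 3, all but null mouse 1. The Naip2 mean was -0.05 without null mouse 2 and 0.37 without null mouse 1.

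Naip1, the gene at the other end of the cluster, gave a similar picture. It was at -0.11 and 0.01 in mutant prostates, against -0.29 and 0.60 in null prostates, with a mean of 0.05 ± 0.39 (SD, n = 4). As with Naip2, null mouse 1 was lowest, null mouse 2 highest, and null mouse 1 the only array whose mouse channel was not well above background. The Naip1 mean was -0.17 without null mouse 2 and 0.28 without null mouse 1.

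Naip6, the other flagellin receptor gene, was near background in both channels. Probe 2 had log2 ratios of 0.05 and 0.10 in mutant prostates, against -0.06 and 0.06 in null prostates, a mean of 0.04 ± 0.07 (SD, n = 4). It passed the filter only through the mouse channel of the mutant mice, and its pool channel was well above background on 1 array. Probe 1, whose start lies 1242 bases from that of probe 2, was at -0.34 and -0.39 in mutant prostates, against -0.24 and 0.03 in null prostates. Its mouse channel was not well above background on any array and its pool channel was on 2.

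The Naip6 ratios also depended on the processing. From the Agilent processed signals, probe 1 was at -2.59 and -3.14 in mutant prostates, against -1.55 and -0.80 in null prostates, and probe 2 at 0.26 and 1.40 in mutant prostates, against 0.08 and -0.10 in null prostates. The probes of the same gene therefore lay on opposite sides of the pool there, apart from null mouse 2. With signals this close to background, no level of Naip6 is given here.

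**Figure D2:**
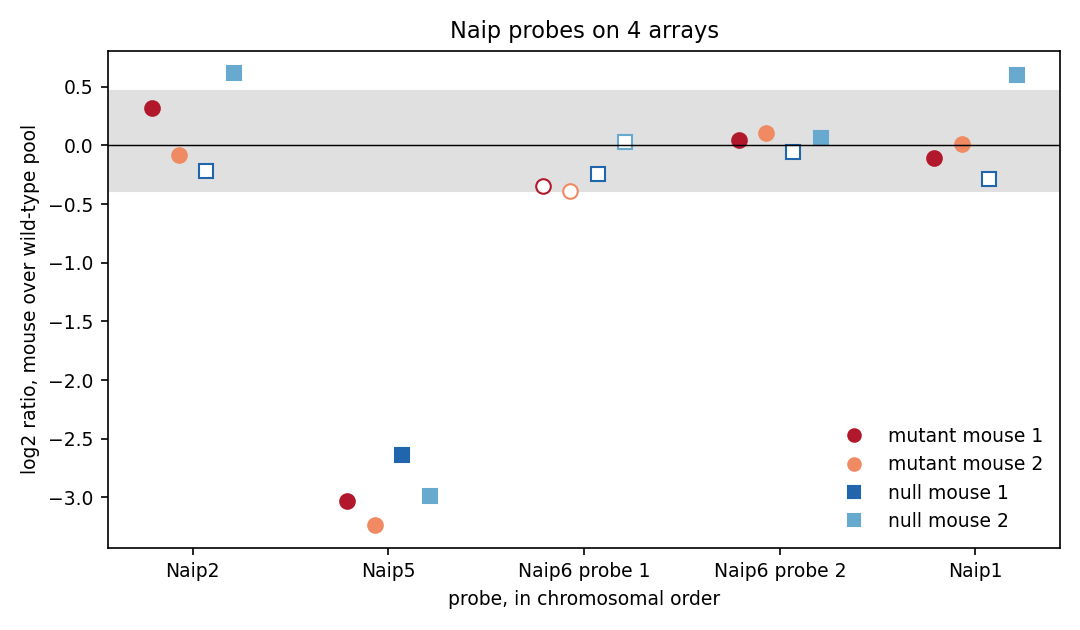
Log2 ratio of mouse to wild-type pool (vertical axis) for the 5 Naip probes in chromosomal order, with circles for mutant mice 1 and 2 and squares for null mice 1 and 2; open symbols mark a mouse channel not well above background, and the grey band runs from the 5th to the 95th percentile of mean ratios over probes past the filter, -0.39 to 0.47. Naip5 lies between -3.24 and -2.64 in all 4 mice, and the other probes between -0.39 and 0.61.

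The question that the choice of genes leaves free is whether the Naip genes differed between the Rb1 genotypes. Naip5 averaged -3.13 ± 0.15 in the mutant group, against -2.81 ± 0.25 in the null group (SD, n = 2 each), a difference of -0.32 (SE 0.22, 95% interval -0.87 to 0.23; limma adjusted p = 0.985). The mutant arrays lay below the null arrays without overlap, as they did at 13.6% of all probes with 4 values, while the genotypes were apart in either direction at 30.4%. With median centring the difference turned to 0.15. Naip2 averaged 0.12 ± 0.28 in the mutant group, against 0.20 ± 0.59 in the null group, a difference of -0.08 (95% interval -0.95 to 0.79; limma adjusted p = 0.992). The Naip2 difference turned to 0.12 without mutant mouse 2 and to 0.34 without null mouse 2. Naip1 averaged -0.05 ± 0.08 in the mutant group, against 0.16 ± 0.63 in the null group, a difference of -0.21 (95% interval -1.06 to 0.64; limma adjusted p = 0.985), which turned to 0.24 without null mouse 2. Naip6 probe 2 averaged 0.08 ± 0.04 in the mutant group, against 0.00154 ± 0.09 in the null group, and since it passed the filter through the mutant mice alone no test is given.

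Of these 3 Naip probes, those of Naip5, Naip2 and Naip1, 0 passed the threshold of an adjusted p under 0.05 in limma, and 0 had an unadjusted p under 0.05. Over all 24914 probes tested, 0% passed the threshold, and 544 probes, or 2.18%, had an unadjusted p under 0.05. The intervals leave room for differences of up to about a log2 unit at Naip1 and Naip2, so equal levels are not shown. An exact two-sided permutation of 2 against 2 mice cannot give a p under 0.333.

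The authors' deposited table lists group means of the linear ratio of mouse to pool, with no value per mouse and no p. In the authors' deposited table Naip6 probe 1 was at 0.121 (SEM 0.0108) for mutant against 0.392 (SEM 0.109) for null, a ratio of 3.23 marked as down in mutant. Naip6 probe 2 was at 1.80 (SEM 0.852) for mutant against 0.846 (SEM 0.00702) for null in the authors' deposited table, a ratio of 2.13 marked as up. The probes of Naip6 thus had opposite directions there. Naip1 was at 0.774 (SEM 0.0855) for mutant against 1.41 (SEM 1.10) for null, and Naip2 at 1.05 (SEM 0.268) for mutant against 1.46 (SEM 1.06) for null, both marked as down in the authors' deposited table. Naip5 was not found among the 26174 rows of the authors' deposited table, whose smallest ratio between the group means was 1.13.

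Among the 24852 probes past the filter with a value on all 4 arrays, 5 had a lower mean ratio than Naip5. Counted from the lowest ratio, Naip5 ranked 9 and 2 on the arrays of mutant mice 1 and 2, against 53 and 8 on those of null mice 1 and 2. A ratio at or under the highest of the 4 Naip5 values on every array was found at 2 probes, those of Ms4a5 and Naip5. Of all probes, 0.0966% (24 probes) were below -1 on all 4 arrays. The spread of Naip5 over the mice was not unusual for its brightness: its SD of 0.249 stood beside a median SD of 0.273 over the 1969 probes whose mean log2 intensity lay within 0.25 of its own. Within that window the lowest mean ratio at another probe was -2.37, that of Ltf.

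**Figure D3:**
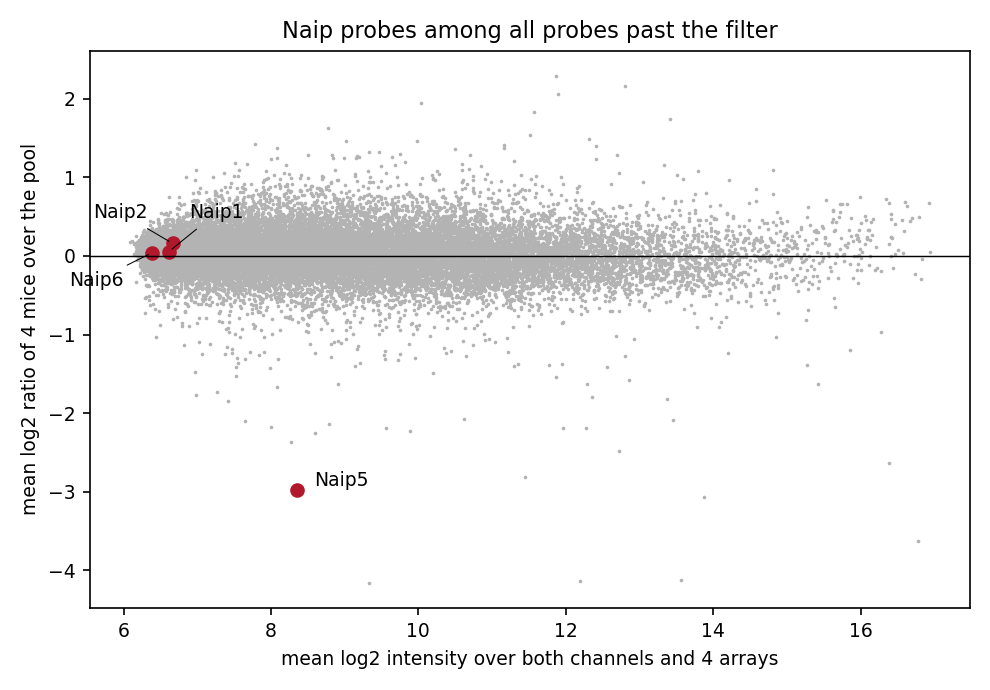
Mean log2 ratio of the 4 mice to the pool (vertical axis) against mean log2 intensity over both channels and 4 arrays (horizontal axis), with a grey point for each probe past the filter and the 4 Naip probes that passed in red. Naip5 lies at -2.97, under every other probe within 0.25 of its mean log2 intensity, while Naip1, Naip2 and Naip6 probe 2 lie between 0.04 and 0.16.

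The genes whose ratios on the 4 arrays lay nearest to those of Naip5, by Euclidean distance among probes past the filter, were Ltf (distance 1.54), Cyp4a12a (2.11), Wfdc15b (2.20), Clu (2.21) and Bpgm (2.23). Ltf, which codes for the secreted iron-binding protein lactoferrin, was at -2.97 and -1.97 in mutant prostates, against -2.36 and -2.17 in null prostates. Cyp4a12a, a fatty acid hydroxylase gene, was at -2.85 and -1.19 in mutant prostates, against -2.34 and -2.60 in null prostates. Wfdc15b, a gene with a protease inhibitor-type WAP domain, was at -2.19 and -1.28 in mutant prostates, against -2.59 and -2.47 in null prostates. The mutant and null values overlapped at Ltf and Cyp4a12a and did not at Wfdc15b, as they did not at 30.4% of all probes with 4 values. Clu, which codes for the secreted chaperone clusterin, was at -2.74 and -1.35 in mutant prostates, against -2.33 and -1.91 in null prostates. Bpgm, the gene of bisphosphoglycerate mutase, was at -3.27 and -1.36 in mutant prostates, against -3.81 and -2.82 in null prostates. In each of these genes mutant mouse 2 had the ratio nearest to 0, whereas in Naip5 it had the lowest, except with median centring, where null mouse 1 was lowest.

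The genes around Naip5 on chromosome 13 did not have its low ratio, for which Naip5 was chosen. Within 2 Mb of the Naip5 probe, 55 other probes passed the filter, the Naip probes left out, with means over the 4 mice between -0.45 (Ptcd2) and 0.54 (Tnpo1) and a median of 0.13. Of these, 0 were below -1 on all 4 arrays, against 0.0966% of all probes. With a share this small among all probes, the count says nothing particular of these genes. The 7 probes within 250 kb averaged between 0.07 and 0.32, and among them was that of Smn1, the survival motor neuron gene beside the cluster, at 0.07 and -0.00371 in mutant prostates, against 0.19 and 0.05 in null prostates. Naip2, 69774 bases from Naip5, and Naip6 probe 2, 71400 bases from it, were at 0.16 and 0.04 on average. Of a list of 21 flanking genes all passed the filter, with a median of 0.06, against 0.02 over all probes.

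**Figure D4:**
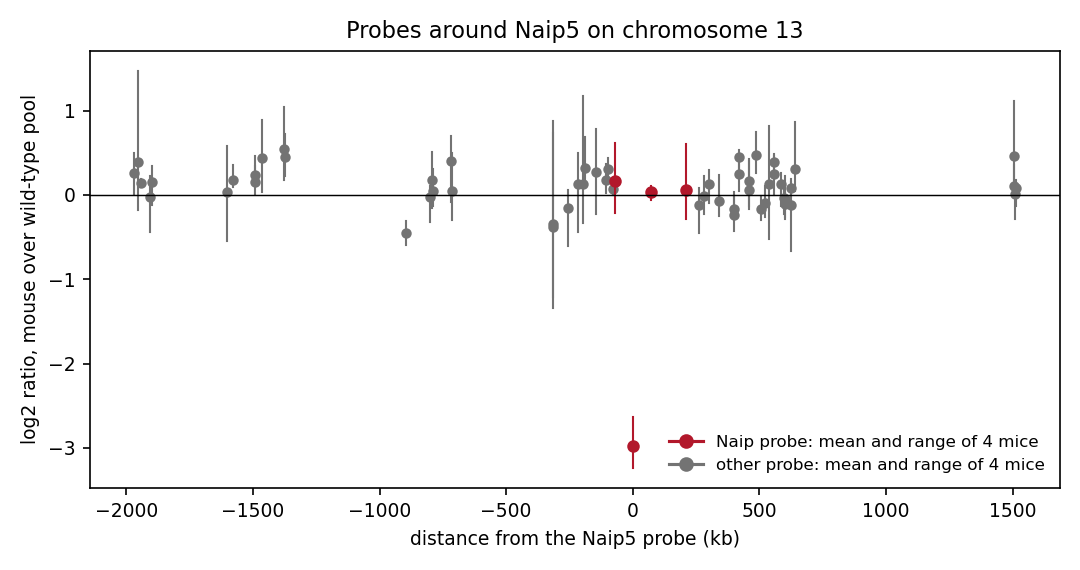
Mean log2 ratio of the 4 mice to the pool, with a bar from the lowest to the highest mouse (vertical axis), for probes past the filter by distance from the Naip5 probe in kb (horizontal axis); Naip probes are red and others grey. Naip5 lies at -2.97, while the means of the 55 other probes run from -0.45 to 0.54.

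The partners of the NAIP proteins came next. Nlrc4, the adaptor that every NAIP needs, was not well above background in either channel of any array, so its level is not known. Of a list of 21 inflammasome genes 20 were on the array and 14 passed the filter, and the median of their mean ratios was 0.10, against 0.02 over all probes. Per mouse that median was 0.12 and -0.02 in mutant prostates, against 0.07 and 0.16 in null prostates. Against the pool 0 of the 14 passed the threshold in limma, against 0.012% of all probes. For the mutant mice alone against the pool 0 of the 14 passed, and 0.00401% of all probes, and for the null mice alone 0 of the 14, and 0% of all probes. At an unadjusted p under 0.05, 2 of the 14 were higher and 2 lower, against 9.31% and 8.26% of all probes.

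Casp1, the protease that NLRC4 activates, was at 0.06 and 0.53 in mutant prostates, against 0.09 and 0.71 in null prostates, and was above the pool in all 4, as were 4 of the 14 genes and 16.7% of all probes. Casp4, which senses cytosolic lipopolysaccharide and is known as caspase-11 in mice, was at 0.11 and 0.16 in mutant prostates, against 1.22 and 0.42 in null prostates. The mutant arrays of Casp4 lay below the null arrays, as at 13.6% of all probes with 4 values, with a difference of -0.68 (SE 0.31, limma adjusted p = 0.985). Pycard, the gene of the adaptor ASC, was 1 of 2 inflammasome genes below the pool in all 4 mice, where 14.9% of all probes lay, at -0.41 and -0.18 in mutant prostates, against -1.18 and -0.23 in null prostates.

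Tlr5, the gene of the cell-surface receptor for flagellin and the other of the 2, was at -0.69 and -0.19 in mutant prostates, against -0.53 and -0.10 in null prostates. Its mean of -0.38 ± 0.28 (SD, n = 4) did not pass the threshold against the pool (limma adjusted p = 0.262). Gsdmd, the gene of the pore former gasdermin D, was at 0.17 and -0.11 in mutant prostates, against -0.33 and -0.13 in null prostates. Il18, the cytokine gene downstream of caspase-1, was above the pool in all 4, at 0.18 and 0.64 in mutant prostates, against 0.07 and 0.09 in null prostates. Il18bp, which codes for the decoy that binds interleukin-18, was at 1.13 and 0.31 in mutant prostates, against 0.07 and 0.64 in null prostates. Il1b was well above background in the mouse channel of 3 arrays and in the pool channel of 0. Irf8, the transcription factor known to drive Naip expression in mouse macrophages, was at 0.13 and -0.04 in mutant prostates, against 0.20 and 0.05 in null prostates. Between the genotypes, 0 of the 14 inflammasome genes passed the threshold in limma, as did 0% of all probes. At an unadjusted p under 0.05 there were 0 of the 14, against 2.18% of all probes, so these counts single out nothing in the list. Il1b and Nlrp3 passed the filter only through the mouse channel of 1 genotype, so their part in these counts is not free of the filter.

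Among 8 other NLR genes, 7 were on the array and 5 passed the filter, with a median of 0.15. Nlrp10 was farthest from the pool, at 1.34 and 1.62 in mutant prostates, against -0.00623 and 1.14 in null prostates, and did not pass the threshold against it (limma adjusted p = 0.194). Nod2, a receptor for bacterial peptidoglycan, was at 0.07 and 0.23 in mutant prostates, against 0.12 and 0.17 in null prostates. Of 6 other genes with BIR domains, which include the caspase inhibitor gene Xiap and the mitotic gene Birc5, 5 passed the filter, with means from -0.14 to 0.18. None of these relatives passed the threshold in limma in any comparison, where at most 0.012% of all probes did. Against the pool 1 of them, Nlrp10, had an unadjusted p under 0.05 and was higher. Of all probes 9.31% were higher at that p and 8.26% lower. Ciita passed the filter only through the mouse channel of 1 genotype.

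**Figure D5:**
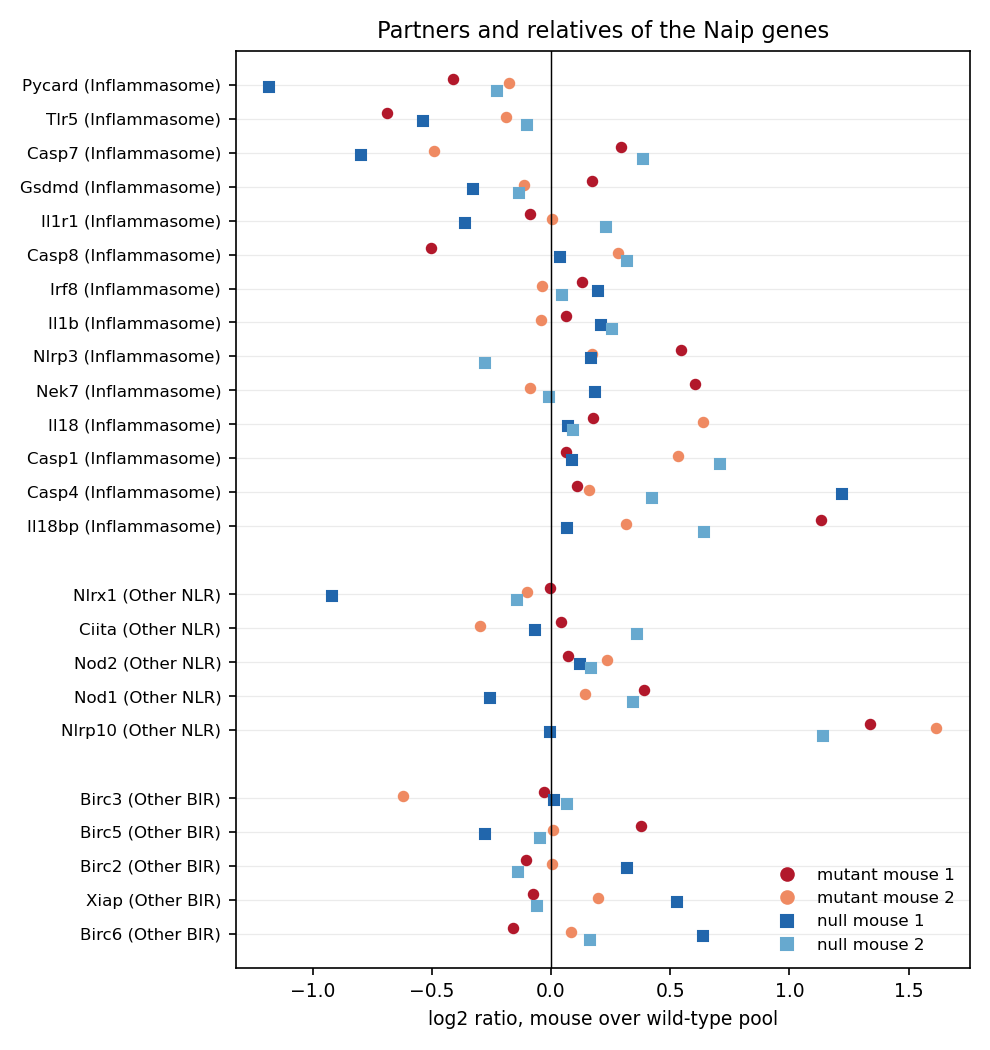
Log2 ratio of mouse to wild-type pool (horizontal axis) for the inflammasome, other NLR and other BIR domain genes past the filter, with circles for mutant mice 1 and 2 and squares for null mice 1 and 2. The means run from -0.50 (Pycard) to 1.02 (Nlrp10), all nearer to 0 than Naip5 at -2.97.

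Markers of cell types that could carry Naip transcripts varied in part as the Naip ratios did. Of 18 macrophage genes all passed the filter, and their median was 0.67 and 0.45 in mutant prostates, against -0.12 and 1.21 in null prostates. Null mouse 1 was lowest and null mouse 2 highest, as in Naip1 and Naip2, and the part of macrophages in those ratios was not tested. Naip5 had its highest ratio in null mouse 1 after loess and its lowest there with median centring. The means of the 18 genes lay between 0.08 and 1.09, 6 were above the pool in all 4 mice, 0 were below it in all 4, and 0 passed the threshold against the pool in limma. Csf1r, the receptor gene that defines the lineage, was at 0.69 and 0.70 in mutant prostates, against -0.62 and 1.10 in null prostates. Of 10 neutrophil genes 9 were on the array and 2 passed, S100a9 and Ltf, while Mpo, Elane, Camp and Ngp were not well above background in either channel of any array. Of 8 lymphocyte genes 6 passed, with a median of 0.05. Of these, 2 were above the pool in all 4 mice, and 2 below it, Cd79b with a mean of -0.38 and Ms4a1 with -0.51. Among all probes, 16.7% were above the pool and 14.9% below it on all 4 arrays.

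Of 9 prostate genes 8 were on the array, and each was well above background in both channels of all 4 arrays, with a median of 0.06. Per mouse their median was 0.41 and 0.17 in mutant prostates, against -0.10 and -0.18 in null prostates. Between the genotypes 0 of the 8 passed the threshold in limma and 3 had an unadjusted p under 0.05, against 0% and 2.18% of all probes. Pbsn, the secretory gene whose promoter drives the Cre, was at 1.17 and 0.91 in mutant prostates, against 0.34 and -0.21 in null prostates. Krt8 differed in the other direction, at -0.13 and -0.49 in mutant prostates, against 1.30 and -0.39 in null prostates. Of 6 seminal vesicle genes 5 were on the array and 4 passed, all of them below the pool in all 4 mice, where 14.9% of all probes lay. In mutant mouse 2 the 4 ran from -2.50 (Svs4) to -0.10 (Svs5). The median of the 4 genes was -4.08 and -0.61 in mutant prostates, against -4.64 and -3.59 in null prostates. Mutant mouse 2, whose median over the seminal vesicle genes was nearest to the pool, had the lowest Naip5 ratio of the 4 mice after loess, at -3.24. With median centring its Naip5 ratio was -2.64 and that of null mouse 1, at -2.76, was the lowest. The part of these genes in the Naip5 ratio was not tested.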

How the data were processed

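RNA of 4 prostates was read on 4 two-colour arrays, with 1 mouse (red) against a pool of 3 wild-type mice (green) on each. The deposited scanner files give spot brightness as intensity, read with Agilent Feature Extraction 9.5.1.1 per the file headers (the submitters' processing notes name 8.5). Processed signals had been background-subtracted and dye-normalised by that program, per the file headers, and the deposited log10 ratio is that of red over green processed signal. The authors' deposited table holds each group's mean as a linear ratio.

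From the mean signals and background medians, limma 3.58.1 (R 4.3.3) gave normexp-corrected values (offset 50), which loess then normalised array by array, with control spots at weight 0 and outlier spots left out. A model with a term for each genotype was fitted over all probes past the filter, with Benjamini-Hochberg adjustment at 0.05, and tested on simulated data. Gene names came from the RefSeq table of GRCm38.p6 by accession for 23082 probes, by symbol for 6582 and by older symbol for 3073, and 8437 probes kept the file's name. The members and the gene lists were chosen with earlier results of these data known. Named genes were every Naip probe, the 5 genes nearest to Naip5 and members of the lists, each by its brightest probe. The test of Naip6 probe 2 between genotypes is not reported, since it passed the filter through 1 genotype. Tnpo1 and Ms4a5 were named after their values were seen. The alternatives were the Agilent processed signals, a normexp offset of 16, median centring, no filter, 1 probe per gene, a replicate block, an intensity trend and leaving out each mouse.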

Additional observations from a re-analysis of the deposited data

Results flagged for a closer look

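The lists around and beside the Naip family held 14 inflammasome, 5 other NLR, 5 other BIR domain and 21 flanking genes past the filter. At 4 of these genes, each by its brightest probe, the mice of the 2 genotypes lay on opposite sides of the pool. Cdk7, a kinase gene near the Naip cluster, was at 0.82 and 0.32 in mutant prostates, against -0.52 and -0.10 in null prostates, a difference of 0.88 (limma adjusted p = 0.985). The other Cdk7 probe around Naip5 did not show this, at -0.14 and 0.11 in mutant prostates, against -0.10 and -0.27 in null prostates. Ccnb1, the cyclin B1 gene of the same region, differed by 0.35 between mutant and null mice. A further Ccnb1 probe had the same split, at 0.13 and 0.08 in mutant prostates, against -0.22 and -0.13 in null prostates. Another did not, at 0.02 and -0.01 in mutant prostates, against -0.14 and -0.28 in null prostates. Birc5 differed by 0.36 and Birc3 by -0.36. None passed the threshold in limma. Among all probes, the arrays of the genotypes did not overlap at 30.4%, which is a looser rule. The share of all probes with the genotypes on opposite sides of the pool was not counted, so the 4 genes are not set against it. No Naip probe had the genotypes on opposite sides of the pool. With 2 mice per genotype, single mice were not tested as outliers.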

How the results depend on the processing

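The Naip5 ratio to the pool stayed below 0 in every alternative run. Its mean was -3.85 from Agilent processed signals, -3.38 with an offset of 16 and -2.57 with median centring, and between -3.06 and -2.89 when each mouse was left out, where the lone mouse of a genotype is assumed to vary like the others. The Naip5 difference between mutant and null mice was 0.15 with median centring and between -0.50 and -0.15 when each mouse was left out. Among the other Naip probes, the Naip2 difference turned to 0.12 without mutant mouse 2 and 0.34 without null mouse 2, that of Naip1 to 0.24 without null mouse 2 (ranges of -0.49 to 0.34 and -0.65 to 0.24 when each mouse was left out), and that of Naip6 probe 2 to -0.22 with median centring. Of the differences of the other Naip probes under the alternatives, 39 kept their direction and, where tested, their side of the threshold.

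Over all probes, the count of calls for mutant minus null ran from 0 to 9 when each mouse was left out, with 9 without null mouse 2, and was 0 otherwise. For mutant over pool (1 call) it was 0 from processed signals, median centring or no filter, 2 with an offset of 16 or 1 probe per gene, 3 with an intensity trend and 0 to 2 when each mouse was left out. For null over pool (0 calls) it was 2 with an offset of 16 or an intensity trend, and 0 to 380 when each mouse was left out, with 380 without null mouse 2. For all 4 mice over pool (3 calls) it was 6 from processed signals, 19 with an offset of 16, 4260 with median centring (4193 higher), 0 with no filter, 38 with an intensity trend, and 0 to 326 when each mouse was left out. Those were 0 without either mutant mouse, 36 without null mouse 1 and 326 without null mouse 2. The cause was not tested.

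The labels share replicate numbers, but mice of 1 number did not deviate together (r = 0.004 across probes), and the numbers were not taken to pair them. With a single difference per genotype, this correlation cannot exclude a pairing. With the number as a replicate block, the Naip5 difference was -0.32 (limma adjusted p = 0.991), and the counts were 0 for mutant over pool, 0 for all 4 mice over pool and 0 for mutant minus null.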
